A study of Sus scrofa with 9 samples.

Results

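Cholesterol and fatty acid synthesis genes were examined in porcine valvular interstitial cells (PVICs), the fibroblast-like cells of the aortic valve leaflet. The set is a list of 37 gene symbols grouped by function: enzymes of the mevalonate pathway, enzymes of the sterol pathway, the proteins that control sterol regulatory element binding protein (SREBP) or carry sterol inside the cell, enzymes that make and desaturate fatty acids, and genes of the liver X receptor (LXR) and sterol efflux. The list was chosen with the levels of these genes in the control, OIM and bFGF groups already known, so their differences between those groups are given as descriptions without a p-value. Of the 37 genes, 35 had a row among the 19535 gene rows of the count table. All 35 were among the 13662 genes that passed the filter on low counts. IDI1 and LSS had no row under those symbols, so neither is among the genes with counts.

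RNA was sequenced from 3 groups of 3 libraries each. All cells came from aortic valves of wild type pigs aged 4 to 5 months, after the endothelium had been scraped from the leaflets, and were grown with 10% fetal bovine serum. Control cells stayed in DMEM, OIM cells were kept in an osteogenic induction medium (insulin at 1e-07 mol/L, ascorbic acid at 50 µg/mL and sodium dihydrogen phosphate at 2 mmol/L), and bFGF cells received the same OIM with basic fibroblast growth factor at 50 ng/mL, each for 3 days according to the labels. The 3 additions of OIM were given together and bFGF was given only on top of OIM, so the parts of the single additions cannot be told apart and no library shows bFGF in plain DMEM. Nothing in the labels says that the 3 libraries of a group came from separate animals or cultures, so errors and p-values describe the spread between these libraries, which may be technical.

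Counts assigned to genes summed to between 57075793 and 64723837 per control library, between 57682710 and 67371523 per OIM library, and between 46773376 and 48270827 per bFGF library. Levels are given as CPM (counts scaled to a common library size) after TMM normalization, and library replicates varied with a common biological coefficient of variation of 0.0602. All 10 markers of valve interstitial cells and fibroblasts were detected, with summed levels of 64861 to 70268 CPM in control, 61455 to 64360 CPM in OIM and 37598 to 37952 CPM in bFGF. Most of the lower sum in bFGF came from the collagens, among them COL1A1 at 26999.8 ± 1838 CPM (SD, n = 3) in control and 9885 ± 222 CPM in bFGF, whereas VIM stood at 6247 ± 106 and 9007 ± 87.3 CPM and PDGFRB at 317 ± 19.6 and 359 ± 11.8 CPM. S100A4 also had a higher mean in bFGF (116 ± 3.03 CPM) than in control (52.1 ± 0.514 CPM). Lower means in bFGF than in control were found for PDGFRA (2278 ± 140.4 in control and 1715 ± 27.8 CPM in bFGF) and DCN (498 ± 9.27 and 214 ± 7.04 CPM). The same held for LUM (743 ± 16.5 and 661 ± 25.4 CPM) and THY1 (396 ± 15.2 and 362 ± 10.6 CPM). The 3 markers of activated interstitial cells (ACTA2, TAGLN and CNN1) summed to 9438 to 9961 CPM, 9668 to 12714 CPM and 1531 to 1705 CPM in the same order. The 7 endothelial markers summed to 18.9 to 22.7 CPM across the control and OIM libraries and to 34.0 to 36.6 CPM in bFGF. The 5 adipocyte markers, of interest for lipid genes, summed to at most 3.74 CPM in any library and to 0.173 to 0.336 CPM in bFGF. Of 6 leukocyte markers 1 was at 0 in every library and the others summed to at most 17.7 CPM, and of the 4 cardiomyocyte markers found 2 were at 0 in every library and the list never passed 0.941 CPM. The part of these marker differences in the differences of the lipid genes was not tested. In bulk RNA, fewer cells of a type and less RNA per cell cannot be told apart.

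Cholesterol is built from acetyl-CoA through mevalonate, isoprenoid diphosphates, squalene and a series of sterols, and fatty acids are built from the same acetyl-CoA by carboxylation and chain extension. Both pathways are under SREBP transcription factors, which are held in the endoplasmic reticulum by SCAP and the INSIG proteins when sterol is plentiful and move to the Golgi for cleavage when it is scarce. SREBP-2, from SREBF2, acts mainly on cholesterol genes and SREBP-1, from SREBF1, mainly on fatty acid genes. LXR, a nuclear receptor for oxysterols, acts in the opposite sense on sterol and drives the export of cholesterol from the cell. SREBP factors bind a short sterol response element and usually act together with NF-Y or Sp1 bound nearby, which is why the letters of these elements were looked up in the DNA before each gene start.

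The 250 bases before the annotated start were read from the RefSeq annotation of Sscrofa11.1 for 35 of the 37 genes. These include LSS, which has no counts here, and so are not the same 35 genes as those with counts. Letters were searched on both strands: TCACNCCA as a core of the sterol response element, CCAAT as the NF-Y box and GGGCGG as the GC box. The core was found before 4 of the 35 genes (11.4%), against 2.84% of 19556 promoter windows of the same length in the genome. The NF-Y box was found before 23 (65.7%, against 31.9%) and the GC box before 27 (77.1%, against 45.9%). Both the core and the NF-Y box stood before 3 of the 35 genes (8.57%), against 1.08% of the windows. A core followed by AT also spells the NF-Y box, which was not the case in any of the 4 windows. A match shows letters, not a bound site, and a window without a match says only that these letters are absent from it.

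The 4 genes with the core are HMGCS1, HSD17B7, SREBF2 and ACSS2, and the stretch around their elements is shown because these are the members whose upstream DNA carries the letters of the regulator itself. The stretches lie at chr16:27957282-27957491 (minus strand), chr4:87743110-87743184 (minus strand), chr5:6784776-6784827 (minus strand) and chr17:38259971-38260051 (plus strand) of Sscrofa11.1, each upstream of the transcribed part of its gene. They are written 5′ to 3′ on the strand of the gene, and capitals mark the core and the NF-Y box, which reads ATTGG on the opposite strand.
HMGCS1: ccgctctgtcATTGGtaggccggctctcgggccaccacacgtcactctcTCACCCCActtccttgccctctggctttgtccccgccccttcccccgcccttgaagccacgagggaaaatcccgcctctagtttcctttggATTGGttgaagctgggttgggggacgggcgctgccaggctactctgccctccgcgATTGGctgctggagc
HSD17B7: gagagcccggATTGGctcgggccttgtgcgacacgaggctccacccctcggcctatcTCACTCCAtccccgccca
SREBF2: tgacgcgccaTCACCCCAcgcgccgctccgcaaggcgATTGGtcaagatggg
ACSS2: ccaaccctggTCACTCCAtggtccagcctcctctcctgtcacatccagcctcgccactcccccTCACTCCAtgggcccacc

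In these stretches HMGCS1 carried 3 NF-Y boxes with its core, and HSD17B7 and SREBF2 carried 1 each. ACSS2 carried 2 cores and no NF-Y box. The window of FASN held none of the 3 elements.

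**Figure D1:**
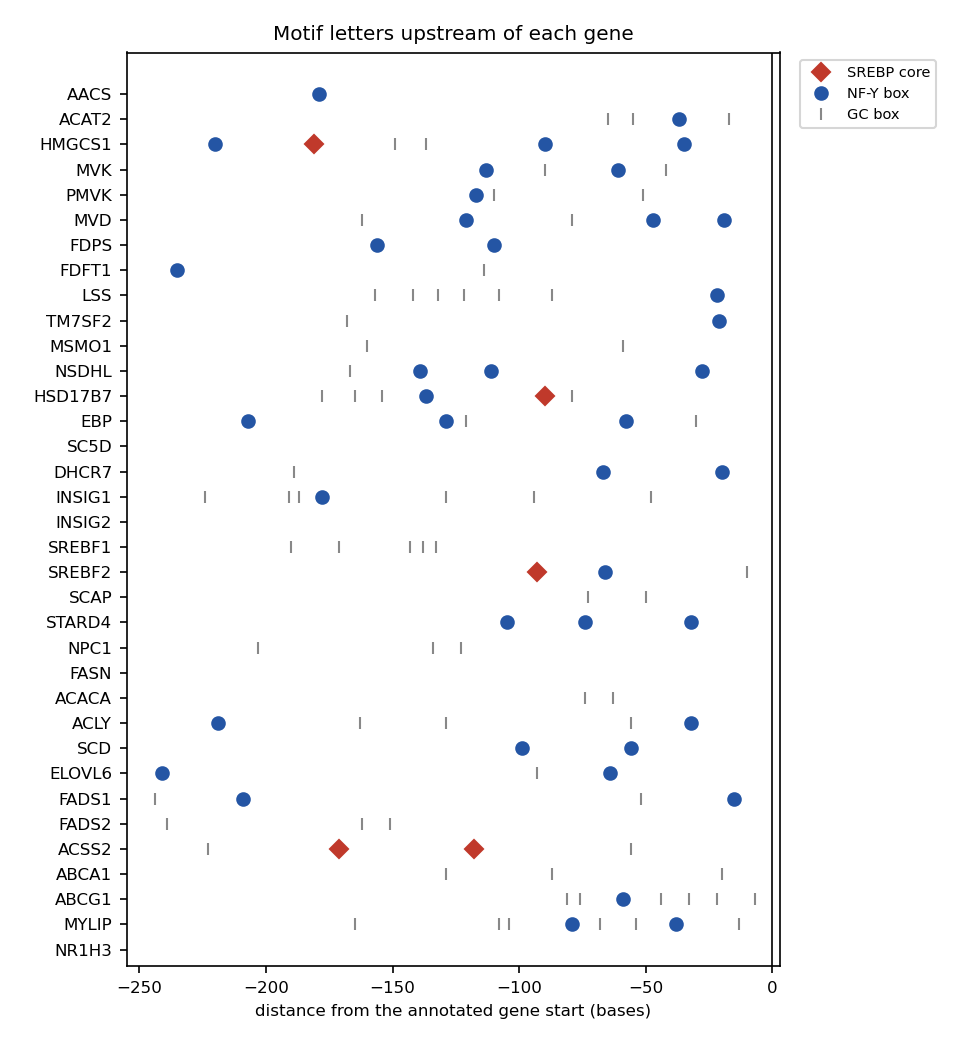
Positions of the letters of the SREBP core (diamonds), the NF-Y box (circles) and the GC box (ticks) in the 250 bases before the annotated start of 35 genes, with the distance from the start in bases on the x axis and 1 gene per row. Diamonds appear in 4 rows, 3 of which also hold a circle, and 23 rows hold at least 1 circle.

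The first comparison asked which lipid synthesis genes differ after osteogenic medium. In OIM compared to control, 12 of the 35 genes were called higher and 0 were called lower by edgeR, where calls were limited to genes with an adjusted p of 0.05 or less whose log2 fold change was 0.5 or more in size. Across all genes tested 1.49% were called higher and 0.864% lower, and because the list was drawn up on these levels nothing is read from the contrast. At an unadjusted p under 0.05 the count of lower genes was also 0, with or without the limit on the fold, and DESeq2 gave 12 higher and 0 lower. The 12 were AACS, ACAT2, MVK, MVD, FDPS, TM7SF2, EBP, INSIG1, STARD4, FASN, SCD and ABCG1. The median log2 fold change of the 35 genes was 0.43, with a range of -0.075 to 1.21, and the median of all genes tested was -0.0019. For 30 of the 35 genes each OIM library lay above each control library, against 14.5% of all genes tested. The limit of 0.5 passes through the middle of these values: HMGCS1 (0.48) and ACLY (0.48) lay just under it and ACAT2 (0.52) and INSIG1 (0.53) just over it. Leaving out 1 library at a time gave between 10 and 14 genes called higher. ABCG1 and MVK were not called without control replicate 3 or without OIM replicate 1, ABCG1 also not without control replicate 1, ACAT2 and INSIG1 not without control replicate 2, and ACAT2 not without OIM replicate 2.

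The second comparison asked what bFGF adds within OIM. In bFGF compared to OIM, 14 of the 35 genes were called higher and 2 lower, against 17.7% and 18.4% of all genes tested, and again nothing is read from these shares. The 14 were AACS, ACAT2, HMGCS1, MVK, PMVK, MVD, NSDHL, HSD17B7, EBP, FASN, ACLY, ELOVL6, ACSS2 and MYLIP, and the 2 called lower were INSIG2 and SCD. The median log2 fold change was 0.22, with a range of -0.96 to 1.31, and the median of all genes tested was -0.0029. In 24 genes each bFGF library lay above each OIM library (36.3% of all genes tested) and in 7 genes each bFGF library lay below (35.8% of all genes tested). These 7 were INSIG2, SCD, TM7SF2, FADS2, SC5D, STARD4 and ACACA. When only library totals were used for scaling, the all-gene median of this comparison shifted to 0.22. SCD was then no longer called (-0.55 became -0.33), and STARD4, ACACA and FADS1 changed sign. The genes lying wholly below were then INSIG2, SCD and FADS2 (23.1% of all genes tested), and 29 genes lay wholly above (51.4% of all genes tested). ACSS2 was not called without OIM replicate 3 or without bFGF replicate 2, TM7SF2 was called lower without OIM replicate 2, bFGF replicate 1 or bFGF replicate 2, and ABCG1 was called higher without OIM replicate 1 or bFGF replicate 3. With library totals alone 17 genes were called higher, ABCG1, FDFT1 and FDPS being the additional ones. The share of all genes called at this scaling is not given here, so nothing is read from this count.

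In bFGF compared to control, which shares its libraries with the other comparisons, 23 of the 35 genes were called higher and 1 lower, against 18.9% and 20.0% of all genes tested. The median log2 fold change was 0.65, with a range of -1.03 to 1.71, and the median of all genes tested was -0.016. All 24 calls were made again whichever library was left out. Over the 3 groups, 22 of the 35 genes stood in the order control, OIM, bFGF in all libraries, a pattern held by 7.00% of all genes tested. In 6 genes each OIM library lay above all control and all bFGF libraries (5.19% of all genes tested), namely SCD, FADS2, ACACA, SC5D, TM7SF2 and STARD4. With library totals alone the first pattern held for 25 genes (8.72% of all genes tested). The second then held for 2, FADS2 and SCD (4.1% of all genes tested). At this scaling FADS1 and STARD4 were also called in bFGF against control.

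**Figure D2:**
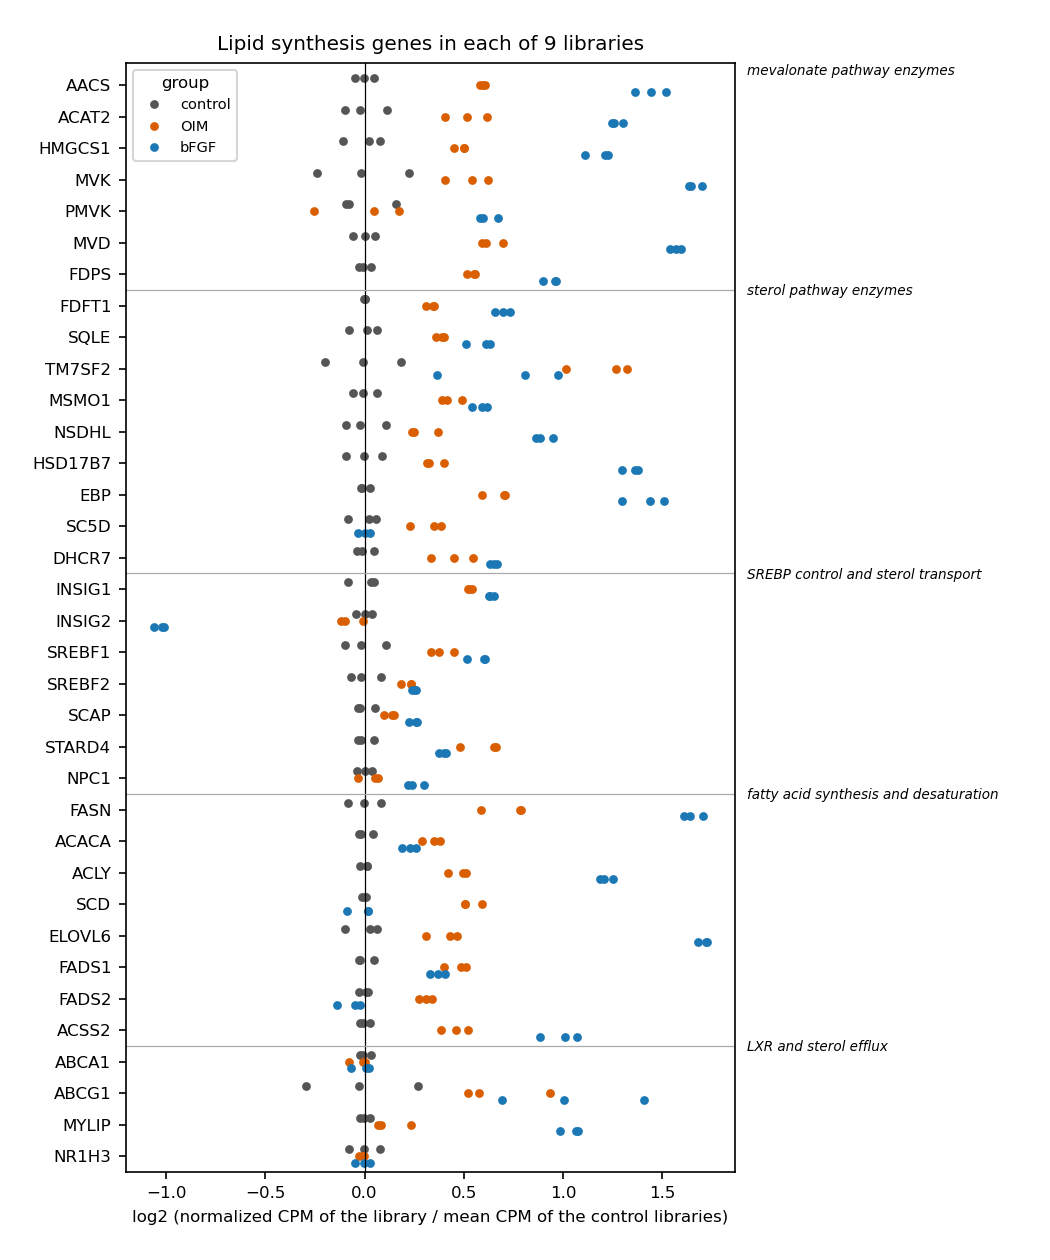
Level of 35 lipid synthesis genes in each of 9 libraries, as the log2 ratio of normalized CPM to the mean of the 3 control libraries on the x axis, with genes grouped by role. Points are single libraries of control (grey), OIM (orange) and bFGF (blue), and 22 genes stand in the order control, OIM, bFGF in all libraries.

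Of 7 mevalonate pathway enzymes measured, 5 were called higher in OIM than in control, 6 in bFGF than in OIM, and all 7 in bFGF than in control, beside 1.49%, 17.7% and 18.9% of all genes tested, with medians of 0.53, 0.75 and 1.27 on the log2 scale. HMGCS1, the cytosolic synthase that forms HMG-CoA, stood at 225, 198 and 216 CPM in the control libraries, 301, 302 and 291 CPM in the OIM libraries and 498, 493 and 461 CPM in the bFGF libraries. Its groups did not overlap, and the log2 fold change was 0.48 ± 0.044 (SE) for OIM against control and 0.70 ± 0.044 for bFGF against OIM. ACAT2, the cytosolic thiolase that joins acetyl-CoA into acetoacetyl-CoA, had 75.1, 64.95 and 68.4 CPM in the control libraries, 91.9, 107 and 99.6 CPM with OIM and 166, 171 and 165 CPM with bFGF. AACS, which makes acetoacetyl-CoA from the ketone body acetoacetate, had 18.3, 18.97 and 19.6 CPM in the control libraries, 28.9, 28.4 and 28.7 CPM with OIM and 54.4, 51.6 and 48.8 CPM with bFGF. In both genes the groups were fully separated, and the change was 0.75 ± 0.054 for ACAT2 and 0.85 ± 0.057 for AACS in bFGF against OIM.

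MVK, mevalonate kinase, was a low-count gene among these enzymes, with 11.03, 9.34 and 8.002 CPM in the control libraries, 14.6, 13.8 and 12.5 CPM with OIM and 29.6, 29.3 and 30.7 CPM with bFGF. The control libraries spread widely but lay below all OIM libraries, and the bFGF mean was 3.16 times the control mean in the fit (log2 fold change 1.66 ± 0.095). MVD, which decarboxylates mevalonate diphosphate, had 24.6, 26.5 and 25.6 CPM in the control libraries, 39.1, 41.4 and 38.6 CPM with OIM and 77.3, 75.99 and 74.2 CPM with bFGF. The 3 groups did not overlap, with 0.63 ± 0.051 for OIM against control and 0.93 ± 0.049 for bFGF against OIM. PMVK, the phosphomevalonate kinase between these 2 enzymes, showed no separation of OIM from control (5.31 ± 0.786 against 5.31 ± 0.534 CPM, mean ± SD, n = 3) and a mean of 8.15 ± 0.272 CPM in bFGF. FDPS, which makes farnesyl diphosphate, averaged 129 ± 2.86 CPM in control, 188 ± 2.76 CPM with OIM and 249 ± 6.64 CPM with bFGF, and its log2 difference of 0.40 between bFGF and OIM was under the limit for a call. A row under the identifier LOC100625049, which RefSeq annotates as isopentenyl-diphosphate Delta-isomerase 1 on chromosome 10 from 68534520 to 68539279, was looked up after the symbol IDI1 had not been found and is not counted among the 35. It had 93.9, 84.99 and 93.4 CPM in the control libraries, 127, 134 and 129.9 CPM with OIM and 193, 192 and 183 CPM with bFGF, the same order without overlap.

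Sterol pathway enzymes differed among themselves more than the mevalonate enzymes did in bFGF against OIM. Of 9 genes measured, 2 were called higher in OIM than in control, 3 in bFGF than in OIM and 8 in bFGF than in control, beside the same shares of 1.49%, 17.7% and 18.9% of all genes tested, with medians of 0.38, 0.20 and 0.70. The 3 called in bFGF against OIM were HSD17B7, EBP and NSDHL, which act on the sterol ring and its side groups after lanosterol. HSD17B7, the 3-ketosteroid reductase, had 16.5, 14.6 and 15.5 CPM in the control libraries, 19.5, 20.5 and 19.4 CPM with OIM and 38.3, 40.4 and 39.99 CPM with bFGF. Its libraries lay in 3 separate ranges, with 0.35 ± 0.067 for OIM against control and 0.998 ± 0.065 for bFGF against OIM. EBP, the sterol isomerase, had 33.7, 34.9 and 33.9 CPM in the control libraries, 55.6, 55.9 and 51.4 CPM with OIM and 97.2, 92.6 and 84.1 CPM with bFGF, again without overlap. NSDHL, the dehydrogenase that acts in removing the C4 methyl groups, averaged 16.97 ± 1.21 CPM in control, 20.7 ± 1.04 CPM with OIM and 31.7 ± 0.994 CPM with bFGF.

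TM7SF2, a sterol C14 reductase, showed the largest difference between OIM and control among the 35 genes. It had 11.06, 8.48 and 9.71 CPM in the control libraries, 24.4, 19.7 and 23.5 CPM with OIM and 17.1, 19.1 and 12.6 CPM with bFGF, so that the bFGF libraries lay between the other groups. The log2 fold change was 1.21 ± 0.13 for OIM against control and -0.47 ± 0.12 for bFGF against OIM (95% interval -0.73 to -0.21), the latter under the limit for a call. The bFGF libraries of this gene varied by a coefficient of variation of 20.6%, with replicate 3 the lowest. SC5D, the desaturase of the penultimate steps, averaged 52.2 ± 2.64 CPM in control, 65.3 ± 3.72 CPM with OIM and 52.2 ± 1.11 CPM with bFGF. With TMM scaling the bFGF mean was thus back at the control mean (log2 fold change -0.11 to 0.11 as a 95% interval). With library totals alone this change was 0.22, beside an all-gene median of 0.21. FDFT1 and SQLE, the squalene synthase and the squalene epoxidase, together with MSMO1 and DHCR7, were between 0.15 and 0.36 higher in bFGF than in OIM on the log2 scale and were called in neither step, although all were called in bFGF against control.

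Among genes of SREBP control and sterol transport, 0 of 7 were called higher and 1 lower in bFGF against OIM, beside 17.7% and 18.4% of all genes tested. In OIM against control 2 of the 7 were called higher and 0 lower, beside 1.49% and 0.864% of all genes tested, and the call of INSIG1 was lost without control replicate 2. At an unadjusted p under 0.05 with the same fold limit, and with DESeq2, the counts over the 35 genes in bFGF against OIM were again 14 higher and 2 lower. SREBF1 had 129, 149 and 137 CPM in the control libraries, 189, 179 and 174 CPM with OIM and 210.4, 211 and 198 CPM with bFGF, and SREBF2 had 184, 204 and 191 CPM, 227, 228 and 219.7 CPM and 229, 231 and 231 CPM in the same groups. The log2 fold change of SREBF2 between bFGF and OIM was 0.035 ± 0.039, and that of SREBF1 0.19 ± 0.047. SCAP, the escort of SREBP, had 60.1, 63.7 and 60.4 CPM in the control libraries, 67.5, 65.8 and 68.1 CPM with OIM and 73.5, 71.6 and 73.9 CPM with bFGF. In each of these 3 genes the groups were ordered control, OIM, bFGF without overlap, but the steps were small and only SREBF1 was called, in bFGF against control.

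The 2 INSIG genes, whose proteins retain the SCAP and SREBP complex, differed in their pattern. INSIG1, itself a target of SREBP, had 111, 101 and 109.5 CPM in the control libraries, 156, 154 and 154 CPM with OIM and 166, 168 and 166 CPM with bFGF. INSIG2 had 26.3, 25.4 and 26.97 CPM in the control libraries, 26.1, 24.5 and 24.2 CPM with OIM and 12.6, 13.03 and 12.9 CPM with bFGF. INSIG1 was called higher in OIM (0.53 ± 0.039) and differed little between bFGF and OIM (0.11 ± 0.039), while INSIG2 was level in control and OIM (-0.075 ± 0.064) and lower in bFGF (-0.96 ± 0.067), with no bFGF library near the others. RefSeq places INSIG2 on chromosome 15 from 23676684 to 23699591 and also lists a pseudogene of the same symbol on chromosome 7 from 52466406 to 52467387, so reads of the pair could have been shared. STARD4, a carrier of cholesterol between membranes, averaged 60.4 ± 1.703 CPM in control, 91.7 ± 6.32 CPM with OIM and 79.5 ± 1.01 CPM with bFGF. NPC1, which exports cholesterol from lysosomes, averaged 97.6 ± 2.56 CPM, 99.7 ± 3.63 CPM and 116 ± 3.42 CPM and was called in no comparison.

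**Figure D3:**
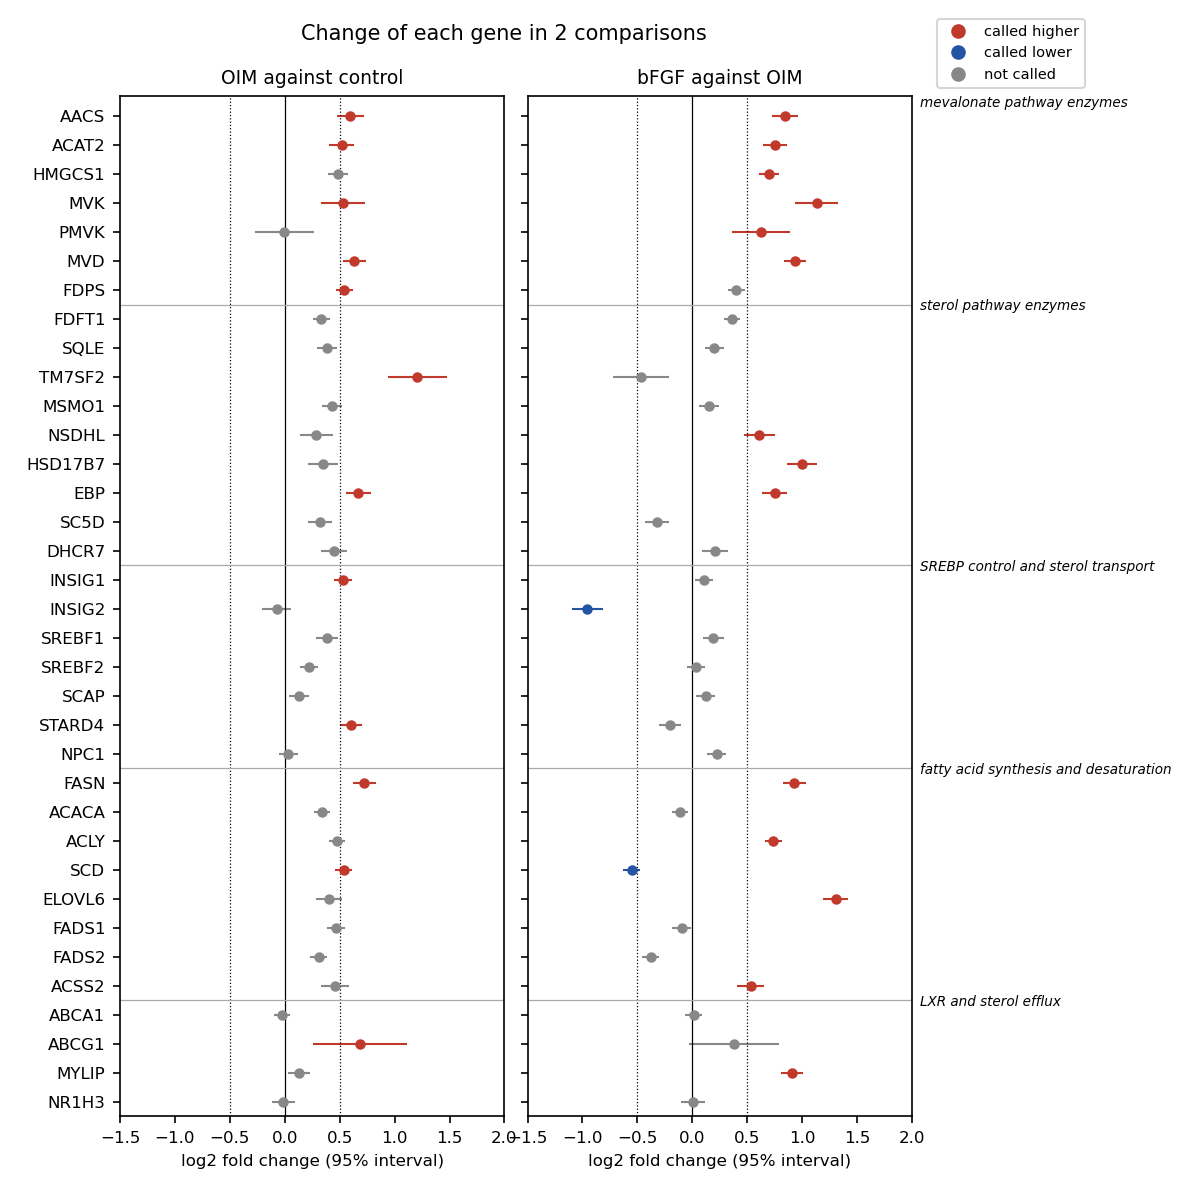
Log2 fold change of 35 lipid synthesis genes for OIM against control (left) and bFGF against OIM (right), with bars for the 95% interval and dotted lines at the limit of 0.5 for a call. Red points were called higher (12 on the left, 14 on the right), blue points were called lower (INSIG2 and SCD on the right), and grey points were not called.

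In fatty acid synthesis and desaturation, 2 of 8 genes were called higher in OIM than in control, beside 1.49% of all genes tested. In bFGF against OIM 4 of the 8 were called higher and 1 lower, beside 17.7% and 18.4%. The 4 called higher in bFGF were FASN, ACLY, ELOVL6 and ACSS2, which supply acetyl-CoA or build and elongate the saturated chain, and SCD was called lower. FASN, the fatty acid synthase, had 597, 669 and 630.0 CPM in the control libraries, 1093, 1089 and 948 CPM with OIM and 1973, 2058 and 1929 CPM with bFGF. Its fold was 1.65 for OIM against control and 1.904 for bFGF against OIM (log2 fold changes 0.72 ± 0.049 and 0.93 ± 0.049). FASN alone held 0.0570% to 0.0626% of gene counts in control, 0.0897% to 0.105% in OIM and 0.214% to 0.227% in bFGF, and moved in rank among all genes from 173 to 187 in control to 20 to 22 in bFGF. ACLY, which splits citrate into cytosolic acetyl-CoA, had 232, 238 and 238 CPM in the control libraries, 332, 336 and 316 CPM with OIM and 544, 561 and 536 CPM with bFGF. ELOVL6, which elongates palmitate to stearate, had 26.7, 24.5 and 27.4 CPM in the control libraries, 35.3, 36.2 and 32.5 CPM with OIM and 86.8, 86.5 and 84.1 CPM with bFGF. In both genes the 3 groups were apart, and the step from OIM to bFGF was larger than that from control to OIM (1.31 ± 0.054 against 0.40 ± 0.056 for ELOVL6), a difference between steps that was not tested. ACSS2, which makes acetyl-CoA from acetate, averaged 25.1 ± 0.464 CPM, 34.5 ± 1.62 CPM and 49.95 ± 3.298 CPM in control, OIM and bFGF.

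SCD, the desaturase that makes oleate from stearate, was called higher in OIM than in control and lower in bFGF than in OIM, the second call being lost with library totals alone (-0.33). Its levels were 784, 795 and 792 CPM in the control libraries, 1193, 1123 and 1123 CPM with OIM and 799.8, 801 and 743 CPM with bFGF, so the bFGF libraries lay on either side of the control libraries. The log2 fold change was 0.54 ± 0.036 for OIM against control, -0.55 ± 0.036 for bFGF against OIM and -0.016 for bFGF against control (95% interval -0.092 to 0.060). With library totals alone the value for bFGF against control was 0.21, beside an all-gene median of 0.21. FADS2, the first desaturase of polyunsaturated fatty acid synthesis, averaged 243 ± 4.16 CPM in control, 301 ± 6.81 CPM with OIM and 232 ± 9.73 CPM with bFGF. FADS1, its partner enzyme, averaged 99.7 ± 2.96 CPM, 138 ± 5.53 CPM and 129 ± 3.49 CPM. These 2 desaturase genes lie near each other on chromosome 2 (FADS1 from 9735425 to 9747405 on the plus strand, FADS2 from 9633941 to 9666666 on the minus strand) and neither was called in any comparison. FADS1 was called in OIM against control without OIM replicate 2, and in bFGF against control with library totals alone. ACACA, the carboxylase that commits acetyl-CoA to fatty acids, averaged 313 ± 8.58 CPM in control, 395 ± 12.5 CPM with OIM and 366 ± 9.28 CPM with bFGF and was not called in any comparison either.

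Per kilobase of exon, taken over all annotated exons of a gene together, SCD was 133 CPM per kb in control, 192 in OIM and 131 in bFGF. Ranks between genes on this scale depend on the annotated exon length, which may differ from the exons counted. The level of FASN on this scale was 78.8, 130.2 and 248 CPM per kb in the same groups, so FASN lay under SCD in control and OIM and above it in bFGF. FADS2 (163, 202 and 156 CPM per kb, over 1489 bases of exon) was the most abundant member per kilobase in control and OIM. Of the mevalonate enzymes FDPS stood highest (82.7, 120.5 and 159 CPM per kb) and MVK lowest (1.39, 2.000 and 4.38 CPM per kb). The place of MVK goes with its annotated exon length of 6814 bases, against 1411 for PMVK. In CPM, PMVK was lower than MVK in all groups (5.31 against 9.46 CPM in control). ABCG1 was the lowest of the 35 in all groups, at 0.325, 0.524 and 0.6803 CPM per kb.

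Ratios of counts within a library show the change of balance between genes independent of scaling. The ratio of SCD to FASN counts was 1.31, 1.19 and 1.26 in control, 1.09, 1.03 and 1.18 in OIM and 0.405, 0.389 and 0.385 in bFGF. FADS2 to FADS1 went from 2.44 ± 0.0668 (SD, n = 3) in control to 2.19 ± 0.0438 in OIM and 1.801 ± 0.0306 in bFGF. The ratio of INSIG1 to INSIG2 was 4.21, 3.98 and 4.06 in control, 5.98, 6.297 and 6.36 in OIM and 13.2, 12.9 and 12.8 in bFGF, with no overlap between groups. SREBF1 to SREBF2 averaged 0.715 ± 0.0129, 0.804 ± 0.0239 and 0.897 ± 0.03401, and SC5D to DHCR7 averaged 1.74 ± 0.0796, 1.601 ± 0.172 and 1.11 ± 0.0313. The ratio of ELOVL6 to FASN returned in bFGF (0.0432 ± 0.00105) to that of control (0.0417 ± 0.00437) after a lower value in OIM (0.0333 ± 0.0009805). All 35 genes together took up 0.429% to 0.437% of gene counts in control, 0.566% to 0.594% in OIM and 0.812% to 0.852% in bFGF, and without FASN and SCD they still took up 0.292% to 0.301%, 0.370% to 0.380% and 0.515% to 0.536%.

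**Figure D4:**
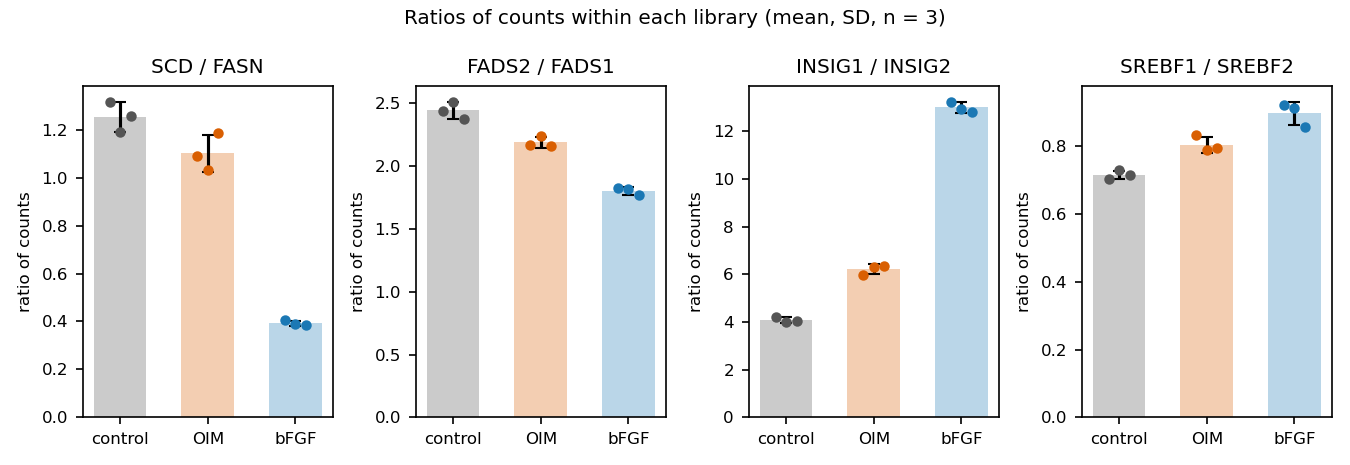
Ratios of raw counts of pairs of genes within each library (points), with the mean as a bar and the SD as an error bar (n = 3), for control, OIM and bFGF. SCD to FASN falls from a mean of 1.25 in control to 0.393 in bFGF, and INSIG1 to INSIG2 goes from 4.09 to 12.99.

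Of the 4 genes of LXR and sterol efflux, 1 was called higher in OIM than in control (ABCG1) and 1 in bFGF than in OIM (MYLIP), beside 1.49% and 17.7% of all genes tested. MYLIP, a ubiquitin ligase that directs lipoprotein receptors to degradation, had 63.1, 61.7 and 60.98 CPM in the control libraries, 65.6, 72.9 and 64.9 CPM with OIM and 129, 130.3 and 123 CPM with bFGF. The groups were apart, with a step of 0.13 ± 0.048 to OIM and of 0.91 ± 0.047 from OIM to bFGF. ABCG1, an exporter of cholesterol to lipoproteins, was low, with 1.71, 2.52 and 2.06 CPM in the control libraries, 4.003, 3.13 and 3.01 CPM with OIM and 4.21, 5.57 and 3.39 CPM with bFGF. Its OIM and bFGF libraries overlapped, and the 95% interval for bFGF against OIM was -0.030 to 0.79. ABCA1, the main exporter of cholesterol to apolipoprotein A-I, averaged 427 ± 8.601 CPM in control, 419 ± 12.96 CPM with OIM and 423 ± 14.4 CPM with bFGF, and its log2 fold change had 95% intervals of -0.10 to 0.049 and -0.063 to 0.089 in the 2 steps. NR1H3, which encodes LXR alpha, averaged 42.4 ± 2.23 CPM, 42.1 ± 0.361 CPM and 42.3 ± 1.14 CPM, with intervals of -0.12 to 0.096 and -0.10 to 0.11. These values rest on TMM scaling. With library totals alone, bFGF against control gave 0.21 for ABCA1 and 0.22 for NR1H3, beside an all-gene median of 0.21.

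Other genes of the same pathways, which the list of 37 does not hold, were taken from the same fit. They too were listed with earlier results of these data known, so the adjusted p-values, over all 13662 genes, describe single genes, and nothing about the list is read from its counts. Of 97 genes named for this purpose, 90 had a row and 82 passed the filter. In OIM compared to control, 1 was called higher and 2 lower by edgeR, beside 1.49% and 0.864% of all genes tested, and the median log2 fold change was 0.035. The gene called higher was SCARB1, the receptor for high density lipoprotein, with 19.8, 22.5 and 17.1 CPM in the control libraries and 29.9, 34.2 and 25.98 CPM with OIM (0.60 ± 0.088, edgeR adjusted p = 8.13e-05). The 2 called lower in OIM were LIPA, the lysosomal acid lipase (-0.53 ± 0.080, edgeR adjusted p = 0.000107), and APOE, apolipoprotein E (-0.64 ± 0.16, edgeR adjusted p = 0.0108). APOE was not called without control replicate 1, LIPA without control replicate 2 or OIM replicate 2, and SCARB1 without OIM replicate 2.

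In bFGF compared to OIM, 12 of the 82 genes were called higher and 16 lower, near the 17.7% and 18.4% of all genes tested, and the median log2 fold change was -0.046. With library totals alone the split was 19 higher and 10 lower, and RNF139, ACAT1, ACSL1, HACD1, OSBPL2 and OSBPL5 were not called. The 3 that rose most were SCARB1 (1.85 ± 0.084) and LRP8 (1.47 ± 0.061) of lipoprotein uptake and ACSL4 (1.26 ± 0.040) of fatty acid activation. SCARB1 went from 29.9, 34.2 and 25.98 CPM in OIM to 108, 109 and 108 CPM in bFGF (edgeR adjusted p = 1.31e-13). LRP8, a receptor for apolipoprotein E and reelin, went from 27.1, 31.4 and 25.9 CPM to 77.2, 80.1 and 77.5 CPM (edgeR adjusted p = 2.76e-14). The 3 that fell most were SMPDL3A, an LXR target (-2.07 ± 0.083, edgeR adjusted p = 2.04e-14), ELOVL4, which elongates very long chains (-1.99 ± 0.14, edgeR adjusted p = 1.48e-10), and VLDLR. VLDLR, which shares these ligands, went from 390.1, 378 and 376 CPM in control and 347, 307 and 372 CPM in OIM to 85.6, 86.6 and 90.2 CPM in bFGF (edgeR adjusted p = 5.32e-17). Against control, 12 of the 82 were called higher in bFGF and 13 lower, or 20 and 11 with library totals alone, beside 18.9% and 20.0% of all genes tested. They were led by SCARB1, LPIN1 and LBR upward and by VLDLR, SMPDL3A and ELOVL4 downward. LPIN1, the phosphatidate phosphatase of glycerolipid synthesis, averaged 33.9 ± 0.272 CPM in control, 45.4 ± 2.92 CPM with OIM and 105 ± 4.34 CPM with bFGF (edgeR adjusted p = 4.1e-16 for bFGF against control).

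By role, the counts of called genes in these additional lists ran in both directions, and with few genes a list they are read beside the 17.7% higher and 18.4% lower of all genes tested in bFGF against OIM. The names beyond the 3 leading genes of each direction were picked after their values had been seen. Of 12 isoprenoid and sterol enzymes, 2 rose in bFGF against OIM (LBR and SOAT1) and 1 fell (ACAT1, the mitochondrial thiolase, -0.71 ± 0.043, edgeR adjusted p = 1.04e-11). LBR, the second sterol C14 reductase of the cell, averaged 31.3 ± 1.82 CPM in control, 39.1 ± 2.61 CPM with OIM and 91.2 ± 6.11 CPM with bFGF, whereas TM7SF2 was not called in bFGF against OIM (-0.47). Of 9 genes of SREBP processing and degradation, 0 were called by edgeR or DESeq2 in OIM against control and in bFGF against control. Across all genes tested 1.49% were called higher and 0.864% lower in the first comparison, and 18.9% and 20.0% in the second. At an unadjusted p under 0.05, 0 of the 9 passed with the fold limit, and 2 and 7 without it. In bFGF against OIM 1 of the 9 fell, the ubiquitin ligase RNF139 (-0.57, edgeR adjusted p = 0.00681), a call that was lost without OIM replicate 3. Of 18 genes of lipoprotein uptake and lysosomal sterol export, 4 rose and 5 fell in bFGF against OIM. STARD5 was not called without OIM replicate 1 or bFGF replicate 3, OSBPL2 not without OIM replicate 1 or bFGF replicate 1, and GRAMD1A not without OIM replicate 3. Of 11 LXR partners, targets and oxysterol enzymes, 0 rose and 4 fell in that comparison (APOE, PLTP, CYP27A1 and SMPDL3A), with 0 higher and 4 lower by DESeq2 and 4 in either direction at an unadjusted p under 0.05 with the fold limit.

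Of 20 genes of fatty acid elongation, activation and supply, 3 rose in bFGF against OIM (ACACB, ACSL4 and ACSL5) and 4 fell (ELOVL4, FADS3, ACSL1 and HACD1). ACSL4, which activates arachidonate, averaged 429 ± 5.07 CPM in control, 475 ± 25.1 CPM with OIM and 1135 ± 46.00 CPM with bFGF (edgeR adjusted p = 5.55e-16 for bFGF against OIM). Of 12 genes of glycerolipid assembly, 3 rose (GPAM, LPIN1 and LPIN2) and 1 fell (PLIN3). GPAM was not called without OIM replicate 1, OIM replicate 3 or bFGF replicate 1, with either other count filter or in the fit of the 2 groups alone, ACSL1 not without OIM replicate 3 or bFGF replicate 1, and HACD1 not without bFGF replicate 3. In OIM against control 0 genes of either list were called by edgeR or DESeq2, beside 1.49% higher and 0.864% lower of all genes tested by edgeR. At an unadjusted p under 0.05 there were 0 with the fold limit and 10 and 3 without it. LRP1, a large endocytic receptor, fell in bFGF against OIM from 5039.9 ± 167 CPM to 2692 ± 78.95 CPM (SD, n = 3, edgeR adjusted p = 9.11e-14).

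**Figure D5:**
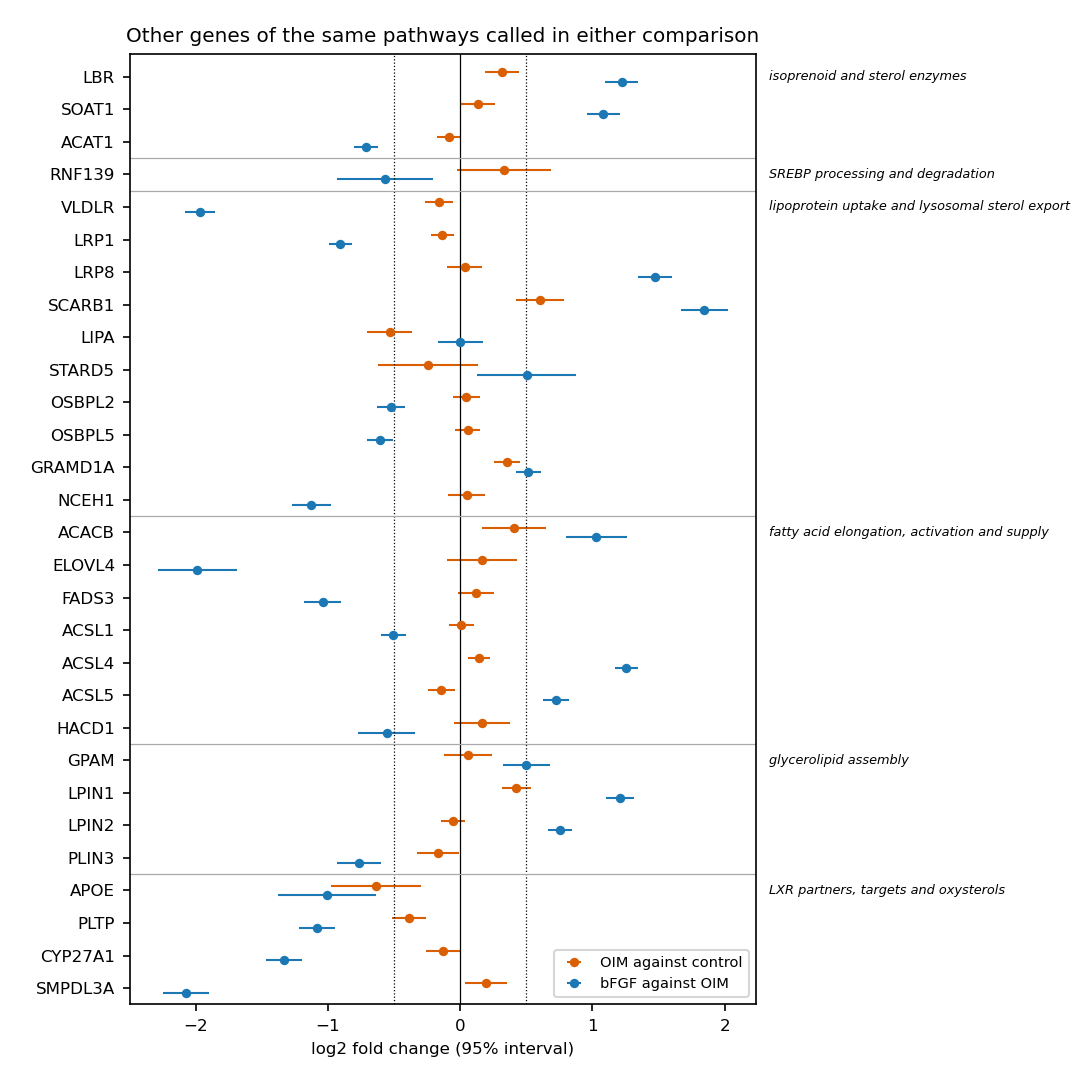
Log2 fold change with its 95% interval for the 29 further genes of these pathways called in OIM against control (orange) or in bFGF against OIM (blue), grouped by role, with dotted lines at the limit of 0.5 for a call. SCARB1 has the largest value for OIM against control (0.60), and SMPDL3A the lowest for bFGF against OIM (-2.07).

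Circular RNAs gave a second, sparse readout of the same genes. The table listed 17 circular RNAs within 8 of the genes, and both ends of all 17 lay at annotated exon boundaries. Their counts summed to 17 to 18 per control library, 3 to 30 per OIM library and 10 to 14 per bFGF library, too few to compare groups. A single one, in NR1H3 on chromosome 2 from 15322375 to 15323114, was counted in all 9 libraries, with 12, 8 and 5 counts in control, 12, 3 and 5 in OIM and 10, 4 and 10 in bFGF, so the groups overlapped. None of the non-coding transcripts was tied to a gene of the list. In the annotation, 9 of the 36 genes found there overlap another gene. The longest overlaps were on the opposite strand, at 19475 bases for ACACA with C12H17orf78, 6679 and 2776 bases for FADS2 with 2 other loci, 4608 bases for ELOVL6, 2771 bases for NR1H3 with ACP2 and 1485 bases for SC5D. ACAT2, NPC1 and STARD4 overlapped a gene on the opposite strand by 94, 50 and 14 bases. PMVK with KCNN3 (113 bases) and NR1H3 with MADD (177 bases) overlapped on the same strand, and the use of strand in counting is not given in the sources used here, so reads of such pairs could have been shared.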

How the data were processed

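RNA was sequenced from 9 PVIC libraries, and their labels give the group and replicate number but no batch. The authors deposited unnormalized values per feature: estimated counts, which are whole numbers for 19535 genes and for 6179 circular RNAs, and of which 44.6% are not whole for 9888 non-coding transcripts (not tested here). A further 19 columns without a name were not used. The submitters' processing notes name Trimmomatic, HISAT2, StringTie and Sscrofa11.1, whereas the paper names Cutadapt and STAR. The paper also names poly-A selection and a shorter treatment than the 3 days of the labels, which name ribosomal RNA removal. The counting program is not given in the sources used here.

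Gene counts were analysed in R 4.3.3 with edgeR 4.0.16 (filterByExpr, TMM, quasi-likelihood fit of 3 groups, 6 residual degrees of freedom, Benjamini-Hochberg over 13662 genes). Calls were limited to an adjusted p of 0.05 or less and a log2 fold change of 0.5 or more in size. The SE is the absolute log2 fold change divided by the square root of F, and intervals are 95%. Scripts were tested on simulated data with 200 changed genes. Alternatives were DESeq2 1.42.0, median-of-ratios scaling, library totals, other count filters, fits of the 2 groups compared, a replicate block, other limits on the fold, and fits with each library left out in turn. All replicate pairs differed beyond sampling noise (mean chi-square per gene 4.62 to 18.8). The largest values, 18.7 and 18.8, were those of OIM replicate 2 with replicates 1 and 3, which gave 5.80 with each other.

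The members and the other lists were chosen with earlier results of these data known. Values in every library are given for members whose log2 fold change reached 1 in size in any comparison and for INSIG1, INSIG2, SREBF1, SREBF2 and SCAP, and for SCD, chosen after its values were seen. Of the other pathway genes, the 3 called with the largest change in each comparison and direction with a mean of at least 10 counts are named, and all called where 5 or fewer. Some genes of these pathways outside the list, called ones among them, and 1 upstream window are not reported here, and the counts leave them out. Upstream windows were read from the RefSeq genome and annotation of Sscrofa11.1 with Python 3.11.15.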

Additional observations from a re-analysis of the deposited data

How the results depend on the processing

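DESeq2, median-of-ratios scaling, both other count filters and fits on only the 2 groups compared gave 12, 16 and 24 called list genes in OIM against control, bFGF against OIM and bFGF against control, the same genes as reported. Of the other pathway genes called in bFGF against OIM, GPAM was lost with both other filters and in the fit of 2 groups, and STARD5 with both other filters. With library totals alone, bFGF against OIM gave 1 list gene lower, 19 other pathway genes higher and 10 lower, and a median of 0.45; bFGF against control gave 20 other pathway genes higher and a median of 0.88. Without a fold limit, 28 list genes were higher in OIM against control (other genes 10 higher, 7 lower), 23 higher and 8 lower in bFGF against OIM (23 and 32), and other genes 30 and 31 in bFGF against control. With a limit of 1, the list gave 1, 2 and 12 genes higher in the 3 comparisons and 0 lower in bFGF against OIM, and the other genes 0 higher and 0 lower, 7 and 8, and 7 and 8. Shares of all genes called are given only for the limit of 0.5 with TMM scaling. Nothing about the lists is therefore read from the counts at other limits or with library totals.

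Leaving out 1 library gave 10 to 14, 13 to 15 and 23 list genes higher in the 3 comparisons, 0, 2 to 3 and 1 lower, and medians of 0.40 to 0.45, 0.20 to 0.27 and 0.64 to 0.68. The other genes gave 0 to 1, 10 to 14 and 12 to 14 higher and 1 to 2, 14 to 16 and 12 to 16 lower. Of the 2 called lower in OIM against control, 1 remained without control replicate 1, control replicate 2 or OIM replicate 2. Sign changes occurred in 13 pairs of gene and comparison under some setting. In the reported fit 0 of them were called, with an absolute log2 fold change of at most 0.20. Under the changed settings the value reached 0.22, for SC5D in bFGF against control with library totals alone. Same-numbered replicates did not deviate together over all genes (correlations -0.032 to 0.0035), which does not settle whether the numbers pair samples. The replicate block gave 12, 16 and 24 called list genes, the same genes. Depth limits ABCG1 and PMVK, the lowest members, and the circular RNAs.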
